A study of Mus musculus with 12 samples.

Results

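Glucocorticoid-responsive genes were followed in bulk RNA-seq of mouse cerebral cortex after brain injury. The set held 10 of the 55487 genes in the deposited tables: the receptor gene Nr3c1 and the target genes Fkbp5, Tsc22d3, Zbtb16, Sgk1, Map3k6, Plin4, Hif3a, Cdkn1a and Lcn2. They were found by matching the Ensembl identifiers of the tables to these symbols. The set was taken as chosen with the levels of the 2 genotypes in view, so the differences between genotypes are given as a description. No p is given for a gene of the set in that contrast, and counts past a threshold stand there only beside the share of all genes and support nothing. Between sides the fit over all genes was used as a test, though earlier results for that contrast were known too.

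All animals had received a controlled cortical impact (CCI), a blow to the exposed brain surface by a piston, and tissue was taken 2 hr later. Cortex of the struck side (ipsilateral) and of the other side (contralateral) was sequenced from 2 genotypes, with 3 libraries in each of the 4 groups. The wt group was CX3CR1cre-er/+, and the cKO group was CX3CR1cre-er/+ STING fl/fl, so both carried a Cre recombinase gene in 1 copy of Cx3cr1, a gene active in microglia and monocytes. The Cre-ER form needs tamoxifen, which the labels do not mention, and the design note of the series writes the Cre of the floxed animals without the ER part. No group was uninjured, and age and sex are not given in the sources used here. The labels do not tie libraries of 1 group to different mice, and p-values therefore reflect how far libraries vary, which may be technical.

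Corticosterone, the main glucocorticoid of mice, rises within minutes of stress or injury and enters the brain. It binds the glucocorticoid receptor, which leaves its chaperone complex, moves to the nucleus and binds DNA at glucocorticoid response elements, raising some genes and lowering others. Fkbp5, Tsc22d3, Zbtb16, Sgk1, Map3k6, Plin4, Hif3a, Cdkn1a and Lcn2 are widely used as targets of this receptor, and several of them also answer to other signals. In whole cortex these transcripts come from several cell types together, among them astrocytes, oligodendrocytes, endothelial cells, neurons and microglia. Fewer cells of a type cannot be told apart from less RNA per cell.

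Libraries held 20779210 to 33567194 counts, apart from cKO ipsilateral library 3 with 7958931. Levels are given as CPM, counts relative to the library's size after scaling by the trimmed mean of M values. Levels of different genes are compared only as TPM, transcript abundances that allow for length. All 10 genes passed the low-count filter that kept 16836 genes, and the lowest count of any of them in any library was 13, for Lcn2. Cortical neuron markers were detected in every group, at summed levels of 1210 to 1700 TPM. Tmem173, which encodes STING, was at 2.49, 2.63 and 3.18 CPM in wt contralateral libraries 1 to 3 and at 2.34, 3.69 and 2.72 CPM in wt ipsilateral ones. In cKO its levels were 0.998, 1.96 and 0.762 CPM contralaterally and 1.05, 2.44 and 1.24 CPM ipsilaterally. The log2 difference of cKO from wt was −1.16 ± 0.35 (SE) contralaterally, where the groups did not overlap, and −0.84 ± 0.35 ipsilaterally, where cKO library 2 overlapped wt; the latter was −0.54 without cKO ipsilateral library 1 and −1.39 without library 2.

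As TPM in wt contralateral cortex, the set spanned from Sgk1 at 137 (range 116 to 150, n = 3) and Tsc22d3 at 101 (95.6 to 110) down to Plin4 at 0.870 (0.55 to 1.27). Between them lay Cdkn1a at 39.2, Nr3c1 at 27.4, Fkbp5 at 20.5, Zbtb16 at 14.7, Map3k6 at 7.18, Lcn2 at 1.68 and Hif3a at 0.963 TPM. Neighbours in this order whose ranges overlapped were Cdkn1a with Nr3c1, Nr3c1 with Fkbp5, Lcn2 with Hif3a, and Hif3a with Plin4.

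**Figure D1:**
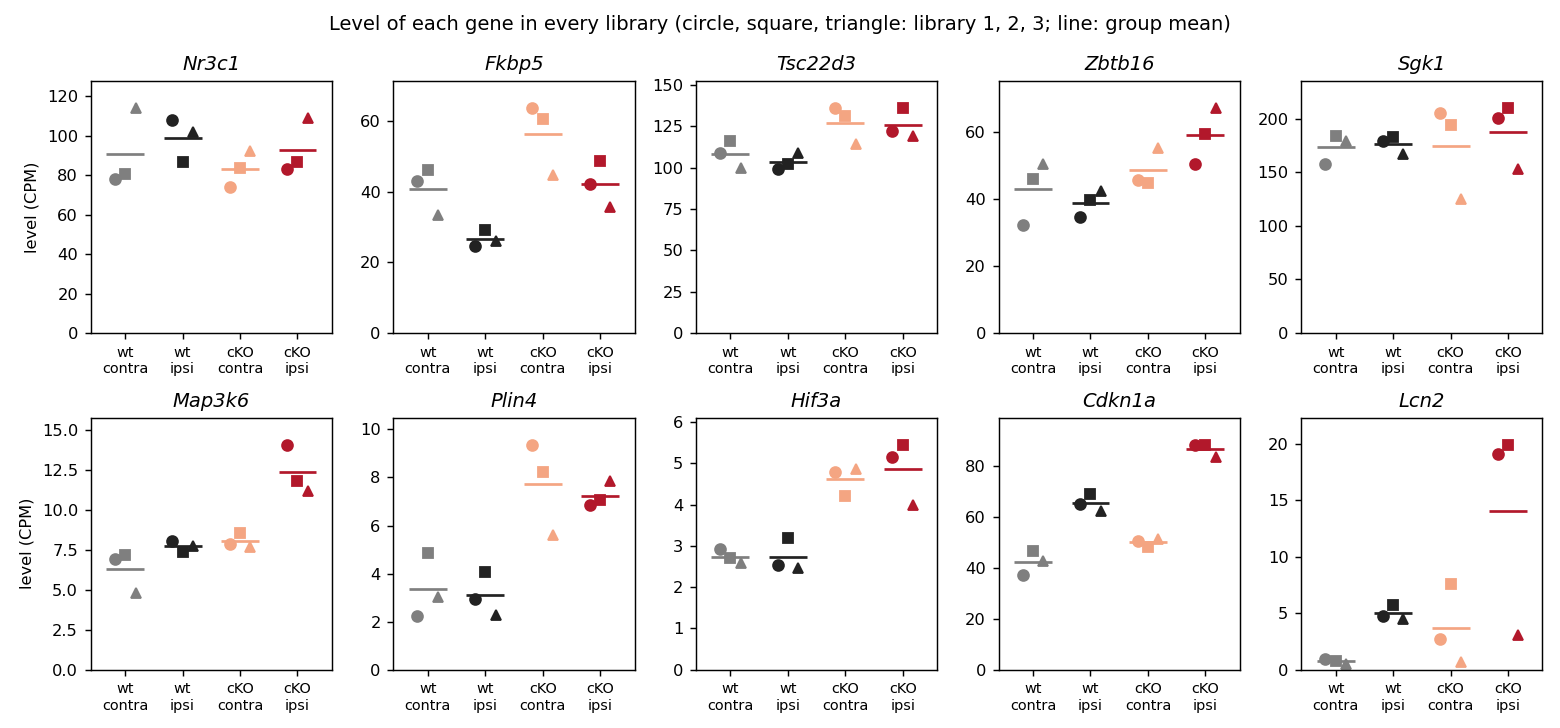
Level of each of the 10 genes in CPM (vertical axis, starting at 0) in the 12 libraries, grouped by genotype and side, with the marker shape giving the library number and the line the group mean. Plin4 and Hif3a lie higher in all 6 cKO libraries than in all 6 wt libraries (for Hif3a not in TPM), Cdkn1a lies higher ipsilaterally in both genotypes, and Nr3c1 overlaps between all groups.

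Promoters of the set are shown because the receptor binds a defined sequence, and because only Sgk1 and Map3k6 held a paired form of it near a start site. RefSeq windows of GRCm38.p6, the assembly also called mm10, from 250 bases before to 50 after a start site were found for 8 of the 10 genes, in 16 windows, and none for Zbtb16 or Nr3c1. The palindromic element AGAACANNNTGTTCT was searched on both strands and stood in 3 of 32851 windows (0.00913%), 1 of which belongs to Sgk1. The relaxed core GNACANNNTGTNC, which every palindrome holds, stood in 0.475% of windows, 1 of them the same Sgk1 window and 1 that of Map3k6. A single arm, AGAACA, was found in 19% of windows. By gene it was found for 2 of the 8, Tsc22d3 and Sgk1, beside 21.3% of all genes. Both have several windows, and not every one held it. In the sequences below, written 5′ to 3′, capitals mark the palindrome and a further single arm of Sgk1 and the relaxed core of Map3k6, which begin 189, 242 and 181 bases before the start sites.
Sgk1, chr10:21993640-21993939, plus strand: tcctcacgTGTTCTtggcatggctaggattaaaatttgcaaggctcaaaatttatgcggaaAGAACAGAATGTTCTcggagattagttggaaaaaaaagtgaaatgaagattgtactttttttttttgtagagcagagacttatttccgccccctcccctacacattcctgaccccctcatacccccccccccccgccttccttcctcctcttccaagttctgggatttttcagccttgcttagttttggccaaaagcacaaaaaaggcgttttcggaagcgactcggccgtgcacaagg
Map3k6, chr4:133240568-133240867, plus strand: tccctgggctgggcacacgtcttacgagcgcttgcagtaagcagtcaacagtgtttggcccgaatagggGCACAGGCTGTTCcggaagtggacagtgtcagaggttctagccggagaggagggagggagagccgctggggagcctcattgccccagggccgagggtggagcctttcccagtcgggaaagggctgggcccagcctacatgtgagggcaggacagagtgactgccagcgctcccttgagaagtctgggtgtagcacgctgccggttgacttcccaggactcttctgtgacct
A match is only a run of letters, and windows without one say nothing of binding elsewhere at the gene.

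Between genotypes, most of the set lay higher in cKO than in wt cortex, on both sides of the brain. The log2 difference, cKO minus wt, was above 0 on both sides for 9 of the 10 genes, the exception being Nr3c1, but for Sgk1 the contralateral value was only 0.01. The value turned below 0 or came to 0.00 in 10 of 23 alternatives, with a range of −0.12 to 0.20 over libraries left out and −0.05 with TPM. For Nr3c1 the sign turned in 2 of 23 on each side, to as much as 0.07 contralaterally and, with TPM, 0.20 and 0.21 ipsilaterally. Of all genes tested, 28.6% were above 0 on both sides. Plin4 and Hif3a were higher in all 6 cKO than in all 6 wt libraries in CPM, which was so for 0.166% of genes, but in TPM the Hif3a libraries overlapped on both sides. The median of the 10 log2 differences was 0.29 contralaterally and 0.64 ipsilaterally, against −0.001 and 0.001 over all genes. As the set was taken as chosen with this contrast in view, these shares and medians are a description and support nothing.

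By edgeR's quasi-likelihood test, with p-values adjusted after Benjamini and Hochberg, 0 of the 10 genes passed an adjusted p of 0.05 between genotypes on either side, and 0% of all genes did. At an unadjusted p under 0.05 there were 7 of the 10 contralaterally and 8 ipsilaterally, all higher in cKO, beside 1.55% and 2.83% of all genes higher in cKO. By DESeq2, 1 passed the adjusted threshold contralaterally and 5 ipsilaterally, beside 0.0178% and 0.0789% of genes. Libraries of cKO lay above those of wt without overlap for 4 genes contralaterally, beside 3.4% of genes, for 7 ipsilaterally, beside 5.6%, and for 4 on both sides, beside 0.445%. The set was chosen with this contrast in view, so nothing is read from these counts.

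**Figure D2:**
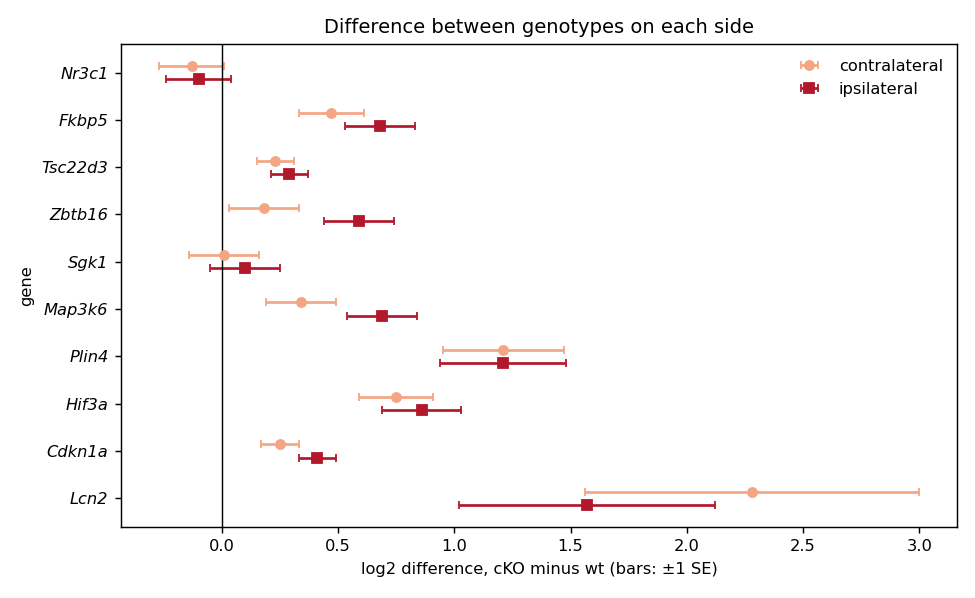
Difference between genotypes, log2 of cKO minus wt (horizontal axis), for each gene (vertical axis) on the contralateral side (circles) and ipsilateral side (squares), with bars of 1 SE from a fit of 3 libraries per group. All points but those of Nr3c1 are at or above 0.01, and Lcn2 has the widest bars, with SEs of 0.72 and 0.55.

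Between sides, 3 genes of the set passed the test in at least 1 genotype: Cdkn1a in both, Fkbp5 in wt and Map3k6 in cKO. In wt, 1 gene rose (Cdkn1a) and 1 fell (Fkbp5), beside 2.92% of all genes called, 2.73% higher and 0.184% lower. In cKO, 2 rose (Cdkn1a and Map3k6) and 0 fell, beside 2.74% called, 2.56% higher and 0.178% lower. The median of the 10 log2 differences was 0.01 in wt and 0.13 in cKO, against −0.006 over all genes in both. In the test of the difference between the 2 side effects 0 of the 10 passed by edgeR and by DESeq2, beside 0% of all genes. At an unadjusted p under 0.05 there were 0 of the 10, beside 2.26% of all genes, and the estimates ran from −0.71 for Lcn2 to 0.41 for Zbtb16.

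Markers of several cell types moved between sides too. Of 10 astrocyte markers, 3 rose in wt and 1 in cKO (medians 0.26 and 0.21), of 10 endothelial markers 1 rose in each (0.23 and 0.20), and of 10 microglial markers 1 fell in each. All 10 meningeal and fibroblast markers lay below 0 in both genotypes, with medians of −0.42 in wt, where 1 fell, and −0.35 in cKO, where 0 passed. Their summed level was 2590 to 2970 TPM in contralateral and 1400 to 2000 TPM in ipsilateral wt libraries, and 2250 to 2980 and 1790 to 1980 TPM in those of cKO. In CPM it was 1030 to 1250 and 589 to 995 in wt, and 888 to 1190 and 718 to 948 in cKO, where the sides overlapped. Of the 5 red blood cell markers tested, 3 rose in wt (median 3.70) and 5 in cKO (4.81). A marker that passes the low-count filter through ipsilateral counts alone is bound to lie higher there, so nothing is read from this rise. None of 10 oligodendrocyte, 10 cortical neuron and 8 striatal markers passed in either genotype by edgeR, beside 2.92% and 2.74% of all genes; at an unadjusted p under 0.05 there were 1, 1 and 3 in wt and 2, 2 and 0 in cKO, and by DESeq2 1 oligodendrocyte marker passed in cKO. The part of cell makeup in the calls of Fkbp5, Cdkn1a and Map3k6 was not tested.

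**Figure D3:**
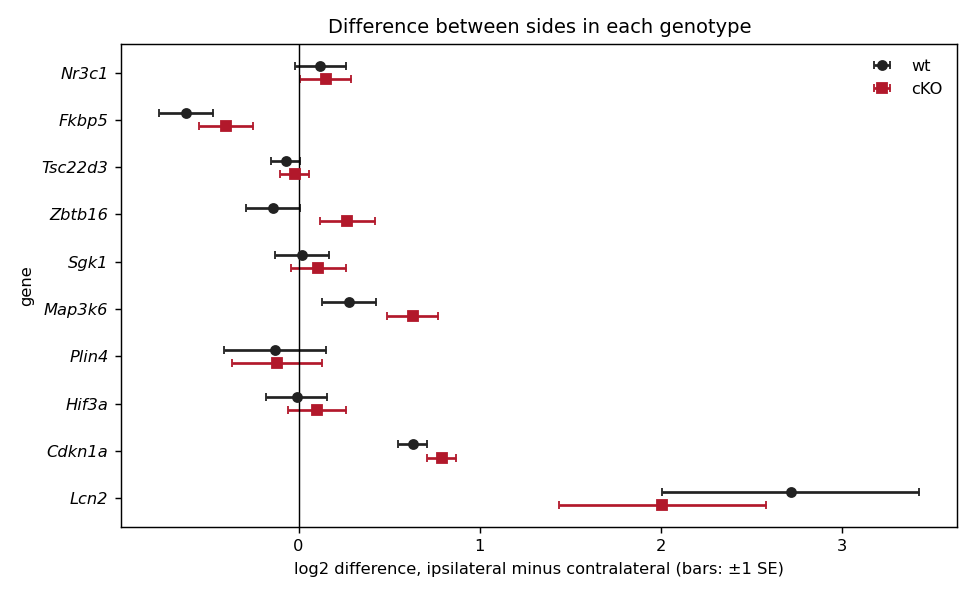
Difference between sides, log2 of ipsilateral minus contralateral (horizontal axis), for each gene (vertical axis) in wt (circles) and cKO (squares), with bars of 1 SE from a fit of 3 libraries per group. Cdkn1a and Lcn2 lie to the right in both genotypes, Fkbp5 to the left in both, and Map3k6 to the right by 0.63 in cKO and 0.28 in wt.

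The receptor gene Nr3c1 on chromosome 18 (minus strand, mm10 positions 39410545 to 39519421) overlapped between all groups. Its level was 77.8, 80.5 and 114 CPM in wt contralateral libraries 1 to 3, and 108, 86.7 and 102 CPM in wt ipsilateral ones. Levels in cKO were 74.2, 83.5 and 92.2 CPM contralaterally and 83.2, 86.5 and 109 CPM ipsilaterally. No library set stood apart by genotype or side. The cKO minus wt log2 difference was −0.13 ± 0.14 contralaterally and −0.10 ± 0.14 ipsilaterally. Ipsilateral minus contralateral was 0.12 ± 0.14 in wt (adjusted p = 0.755) and 0.15 ± 0.14 in cKO (adjusted p = 0.692), and with TPM the wt value turned to −0.07. Relative to the median of all genes with TPM, −0.18, that wt value was 0.11.

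Fkbp5 encodes a co-chaperone that lowers the receptor's affinity for hormone and so closes a feedback loop; it lies on chromosome 17 (minus strand, 28399094 to 28517527). Its level fell on the injured side of wt cortex. In wt it was 43.0, 46.1 and 33.4 CPM in contralateral libraries 1 to 3 and 24.8, 29.1 and 26.0 CPM in ipsilateral ones, with no overlap. The wt log2 change was −0.62 ± 0.15 (0.65-fold, adjusted p = 0.0349).

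Levels of Fkbp5 in cKO were 63.8, 60.6 and 44.9 CPM contralaterally and 42.4, 48.8 and 35.7 CPM ipsilaterally, and these overlapped. In TPM the cKO sides did not overlap, at 22.1 to 29.9 contralaterally and 19.3 to 19.6 ipsilaterally. By limma on log2(TPM + 1) the cKO difference was −0.45 (adjusted p = 0.201). The cKO log2 difference between sides was −0.40 ± 0.15 (adjusted p = 0.212), and the test of the difference between the 2 side effects gave 0.21 ± 0.21 (adjusted p = 1.0). In cKO Fkbp5 did pass with no low-count filter, and when equal library numbers were fitted as blocks. The wt call was lost without some single libraries: its adjusted p was 0.102 without wt contralateral library 1, 0.192 without library 2, and 0.115, 0.0712 and 0.139 without wt ipsilateral libraries 1, 2 and 3. It was 0.053 without cKO ipsilateral library 1. Fkbp5 was 1.38-fold higher in cKO contralaterally (log2 0.47 ± 0.14), where wt and cKO overlapped, and 1.60-fold higher ipsilaterally (0.68 ± 0.15), where they did not.

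Tsc22d3, on the X chromosome (minus strand, 140539528 to 140600659), encodes GILZ, a leucine zipper protein that mediates part of the anti-inflammatory action of glucocorticoids. It was at 109, 116 and 100 CPM in contralateral and 99.0, 102 and 109 CPM in ipsilateral wt libraries. The cKO libraries held 136, 131 and 114 CPM contralaterally and 122, 136 and 119 CPM ipsilaterally. Of the 6 cKO libraries, 5 lay above the highest wt library. The genotype difference was 0.23 ± 0.08 contralaterally and 0.29 ± 0.08 ipsilaterally, and sides differed by −0.07 in wt and −0.02 in cKO, neither passing the test.

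Zbtb16 encodes PLZF, a zinc finger transcription factor, and lies on chromosome 9 (minus strand, 48654297 to 48836222). Its level was 32.3, 45.8 and 50.3 CPM in contralateral and 34.5, 39.7 and 42.2 CPM in ipsilateral wt libraries. In cKO cortex it stood at 45.7, 44.7 and 55.2 CPM contralaterally and 50.3, 59.2 and 67.0 CPM ipsilaterally. Groups overlapped on the contralateral side and not on the ipsilateral side. The difference between genotypes was 0.59 ± 0.15 ipsilaterally and 0.18 ± 0.15 contralaterally, and the latter was 0.01 without wt contralateral library 1.

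Sgk1 and Map3k6 encode kinases. Sgk1, which acts on ion channels and transporters and lies on chromosome 10 (plus strand, 21882184 to 21999903), has the palindrome printed above. It was at 158, 184 and 179 CPM in contralateral and 179, 183 and 167 CPM in ipsilateral wt libraries, and at 205, 194 and 125 CPM in contralateral and 201, 210 and 153 CPM in ipsilateral cKO libraries. All 4 groups overlapped in CPM, with cKO library 3 the lowest on both sides. In TPM the ipsilateral genotypes did not overlap, at 126 to 133 in wt and 150 to 172 in cKO, and cKO library 3 was the highest there. Differences were 0.01 ± 0.15 and 0.10 ± 0.15 between genotypes and 0.02 and 0.11 between sides in wt and cKO, with neither side difference past the test.

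Map3k6, which encodes a stress-activated kinase of the ASK family, lies on chromosome 4 (plus strand, 133240818 to 133252929) and holds the relaxed core. Its level rose on the injured side of cKO cortex, from 7.87, 8.57 and 7.71 CPM in contralateral to 14.1, 11.8 and 11.2 CPM in ipsilateral libraries (log2 0.63 ± 0.14, 1.55-fold, adjusted p = 0.0253). In wt it was at 6.97, 7.22 and 4.83 CPM contralaterally and 8.07, 7.38 and 7.74 CPM ipsilaterally, a difference of 0.28 ± 0.15 (adjusted p = 0.402). In CPM the sides did not overlap in either genotype. In TPM those of wt overlapped, at 5.12 to 8.5 contralaterally and 5.63 to 8.37 ipsilaterally, and the wt difference was 0.01. Relative to the median of all genes on that scale, −0.18, it was 0.19. The test of the difference between these 2 side effects gave 0.35 ± 0.21 (adjusted p = 1.0).

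The cKO call of Map3k6 was lost without any of cKO contralateral libraries 1, 2 and 3 (adjusted p = 0.12, 0.0604 and 0.0841), without cKO ipsilateral libraries 1 and 2 (0.162 and 0.0601), and with TPM (0.305). Between genotypes Map3k6 was higher in cKO by 0.69 ± 0.15 ipsilaterally and by 0.34 ± 0.15 contralaterally, without overlap on either side in CPM. In TPM the contralateral genotypes overlapped, at 5.12 to 8.5 in wt and 6.83 to 8.59 in cKO. The contralateral value was 0.18 without wt contralateral library 3, the lowest of the 12, and 0.14 on the log2(TPM + 1) scale.

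Plin4 and Hif3a were the 2 genes of the set with all cKO libraries above all wt libraries in CPM, and for Hif3a this did not hold in TPM. Plin4, which encodes a protein of the lipid droplet coat, lies on chromosome 17 (minus strand, 56100591 to 56109803). It was at 2.24, 4.84 and 3.03 CPM in contralateral and 2.95, 4.08 and 2.26 CPM in ipsilateral wt libraries. In cKO it was 9.36, 8.22 and 5.62 CPM contralaterally and 6.85, 7.05 and 7.84 CPM ipsilaterally. The lowest cKO library, at 5.62 CPM, lay above the highest wt library, at 4.84 CPM. The difference was 1.21 ± 0.26 contralaterally (2.31-fold) and 1.21 ± 0.27 ipsilaterally (2.32-fold), and 0.70 and 0.74 on the log2(TPM + 1) scale, which understates changes of low genes. Plin4 overlaps Hdgfl2 on the opposite strand, and how strand was used in counting is not given in the sources used here; Hdgfl2 differed by −0.00 ± 0.13 and 0.16 ± 0.13 in the same comparisons.

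Hif3a, on chromosome 7 (minus strand, 17031507 to 17062427), encodes the third HIF alpha subunit, some forms of which hold back the hypoxia response. It was at 2.93, 2.7 and 2.58 CPM in contralateral and 2.54, 3.18 and 2.47 CPM in ipsilateral wt libraries. cKO levels were 4.78, 4.22 and 4.86 CPM contralaterally and 5.15, 5.45 and 3.98 CPM ipsilaterally. The lowest cKO library, at 3.98 CPM, was above the highest wt library, at 3.18 CPM. It differed by 0.75 ± 0.16 contralaterally (1.69-fold) and 0.86 ± 0.17 ipsilaterally (1.82-fold). In TPM the genotypes overlapped, at 0.66 to 1.53 in wt and 1.11 to 1.73 in cKO contralaterally and at 0.62 to 1.17 and 1.13 to 1.52 ipsilaterally, and with 0.1 added before log2 the differences were 0.51 and 0.53. The overlapping gene 4833404L02Rik held at most 0.0858 CPM. Neither gene passed the test between sides: Plin4 differed by −0.13 in wt and −0.12 in cKO, and Hif3a by −0.01 and 0.10.

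Cdkn1a rose on the injured side in both genotypes, with the smallest adjusted p of the set in each. It encodes the cell cycle inhibitor p21, which also answers to DNA damage through p53, and lies on chromosome 17 (plus strand, 29090976 to 29100727). In wt it rose from 37.2, 46.8 and 42.9 CPM in contralateral to 65.0, 69.1 and 62.3 CPM in ipsilateral libraries (log2 0.63 ± 0.08, 1.55-fold, adjusted p = 0.000252). In cKO it rose from 50.8, 48.2 and 51.5 CPM to 88.5, 88.5 and 83.7 CPM (0.79 ± 0.08, 1.73-fold, adjusted p = 2.41e-05). Sides did not overlap in either genotype. The wt call was lost with TPM (adjusted p = 0.186), and the cKO call held in all 24 alternatives tried. Cdkn1a lay higher in cKO than in wt without overlap on both sides, by 0.25 ± 0.08 contralaterally and 0.41 ± 0.08 ipsilaterally. The overlapping gene AC167363.2 held at most 0.558 CPM.

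Lcn2, on chromosome 2 (minus strand, 32384633 to 32388252), encodes lipocalin 2, a siderophore-binding protein made by reactive astrocytes and stored in neutrophil granules. It was at 0.967, 0.795 and 0.486 CPM in contralateral and 4.71, 5.75 and 4.53 CPM in ipsilateral wt libraries. Levels in cKO were 2.76, 7.54 and 0.714 CPM contralaterally and 19.1, 19.9 and 3.11 CPM ipsilaterally. The cKO libraries spread widely on both sides, and library 3 was the lowest on each, with 15 and 25 counts. The log2 difference between sides was 2.72 ± 0.71 in wt (adjusted p = 0.0551), without overlap, and 2.01 ± 0.57 in cKO (adjusted p = 0.0853), with overlap. The adjusted p was 0.0171 in wt and 0.0115 in cKO without cKO ipsilateral library 3. Lcn2 also passed in both genotypes when equal library numbers were fitted as blocks.

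Differences of Lcn2 between genotypes were 2.28 ± 0.72 contralaterally and 1.57 ± 0.55 ipsilaterally, with overlap on both sides. Without cKO contralateral library 2 the contralateral value was 1.30. Neutrophil markers were higher on the injured side too: 7 of 12 were tested, and 6 rose in wt and 7 in cKO, where 2.73% and 2.56% of all genes rose. A marker that passes the low-count filter through ipsilateral counts alone is bound to lie higher there. Nothing is therefore read from the count of markers that rose. The summed level of the 12 markers was 5.94 to 6.05 CPM in wt contralateral and 12.5 to 32.5 CPM in wt ipsilateral libraries. In cKO contralateral libraries 1 to 3 it was 5.46, 5.62 and 6.33 CPM, where Lcn2 was at 2.76, 7.54 and 0.714 CPM. In the ipsilateral ones it was 26.3, 47.3 and 21.8 CPM, where Lcn2 was at 19.1, 19.9 and 3.11 CPM. Mmp8 and Ly6g were at 0 in all contralateral libraries, and Camp in those of wt. No neutrophil marker passed the test between genotypes by edgeR or DESeq2. At an unadjusted p under 0.05 there were 0 of 7 contralaterally and 2 ipsilaterally, both higher in cKO. Of all genes, 1.55% contralaterally and 2.83% ipsilaterally were higher in cKO at that threshold. Ipsilaterally all 7 neutrophil markers lay above 0 in cKO relative to wt, with a median log2 difference of 0.77, and contralaterally the median was 0.01. The part of these cells in the levels of Lcn2 was not tested.

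**Figure D4:**
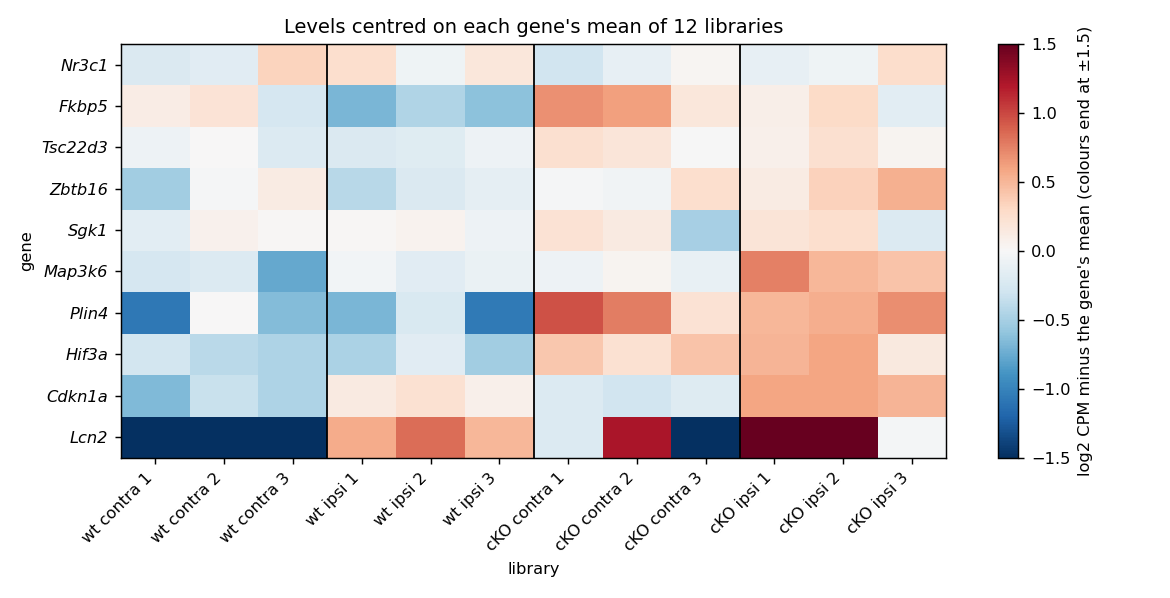
Levels of the 10 genes (vertical axis) in the 12 libraries (horizontal axis), as log2 CPM minus the gene's mean over all libraries, in colours that end at 1.5 in either direction. The wt libraries are mostly below and the cKO ipsilateral libraries mostly above each gene's mean, with 9, 9 and 6 of the 9 target genes above it in cKO ipsilateral libraries 1 to 3.

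Libraries of 1 group were not alike across the set. The median centred log2 level of the 9 target genes was −0.28, −0.02 and −0.46 in wt contralateral libraries 1 to 3 and −0.22, −0.17 and −0.1 in wt ipsilateral ones. In cKO it was 0.22, 0.18 and −0.01 contralaterally and 0.5, 0.5 and 0.15 ipsilaterally. By this median library 3 was the lowest in both cKO groups and in wt contralateral cortex, and the highest in wt ipsilateral cortex. By the mean of the 9 genes it was the lowest in wt ipsilateral cortex too, at −0.22 beside −0.2 and −0.03. In TPM cKO ipsilateral library 3 was the highest of its group for Plin4, Tsc22d3, Zbtb16, Sgk1 and Cdkn1a, and the lowest for Hif3a and Lcn2. Without cKO ipsilateral library 3, the shallowest, the ipsilateral log2 differences between genotypes were 0.78 for Fkbp5, 1.17 for Plin4, 0.96 for Hif3a, 0.74 for Map3k6 and 0.43 for Cdkn1a.

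A list of 30 other glucocorticoid targets, all of them tested, held genes that rose on the injured side in both genotypes. In wt 12 rose and 0 fell, and in cKO 14 rose and 0 fell, the same 12 with Mt2 and Sdc4, beside 2.73% and 2.56% of all genes that rose and 0.184% and 0.178% that fell. The list's median log2 difference was 0.33 and 0.42, against −0.006 over all genes in both. This list was put together with earlier results of these data known. Its counts and medians are therefore a description, and nothing is read from them beside those of all genes. Many of them, such as Dusp1, Per1 and Gadd45g, are also immediate early or stress genes that other signals raise. Dusp1, a phosphatase that switches off MAP kinases, rose from 60, 60.4 and 51.2 CPM to 128, 134 and 145 CPM in wt (1.25 ± 0.12, adjusted p = 1.28e-05). It rose in cKO from 51.6, 60.9 and 40.9 CPM to 109, 128 and 132 CPM (1.26, adjusted p = 1.21e-05). The clock gene Per1 rose by 0.72 ± 0.08 in wt (adjusted p = 3.09e-05) and 0.71 in cKO (adjusted p = 3.43e-05).

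Among the other called targets, the small GTPase gene Arl4d rose by 1.19 ± 0.12 in wt (adjusted p = 1.33e-05) and 1.32 in cKO (adjusted p = 4.63e-06). Cebpb, a transcription factor of inflammation, rose by 1.25 ± 0.17 in wt (adjusted p = 0.00031) and 1.63 ± 0.16 in cKO (adjusted p = 1.78e-05). Gadd45g, a stress gene, rose by 1.17 ± 0.17 and 1.48, the transcription factor gene Nfil3 by 0.72 ± 0.09 in wt, and Cebpd by 1.51 ± 0.20 in cKO. With log2 TPM and 1 added fewer of the list passed, 4 in wt and 7 in cKO.

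Between genotypes, 0 of the 30 other targets passed by edgeR and by DESeq2 on either side. At an unadjusted p under 0.05 there was 1 contralaterally and 6 ipsilaterally, all higher in cKO, beside 1.55% and 2.83% of all genes higher in cKO. The medians were 0.04 and 0.13, against −0.001 and 0.001 over all genes. The 3 with the highest level were Glul, glutamine synthetase, at −0.04 and −0.05, Klf9, a transcription factor, at 0.08 and 0.00, and Rhob, a small GTPase, at 0.16 and −0.04. Since the 10 genes were picked with this contrast in view, the medians of both lists are not set against each other.

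Of 12 genes of the receptor machinery, covering the mineralocorticoid receptor, the enzymes that make or break down corticosterone, chaperones and coactivators, 11 were tested and Hsd11b2, at a mean of 0.0264 CPM, was not. By edgeR, 0 passed in any of the 4 comparisons, with 2 lower in wt and 1 lower in cKO between sides at an unadjusted p under 0.05, beside 5.43% and 5.48% of all genes lower, and 0 and 0 between genotypes. Hsp90aa1, a chaperone that holds the receptor ready for hormone, differed by −0.21 ± 0.06 between sides in wt (adjusted p = 0.0668) and passed there by DESeq2, by limma-voom and with library totals. In cKO it differed by −0.08 ± 0.06. Its constitutive partner Hsp90ab1 differed by −0.15 ± 0.07 in wt and −0.02 in cKO.

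**Figure D5:**
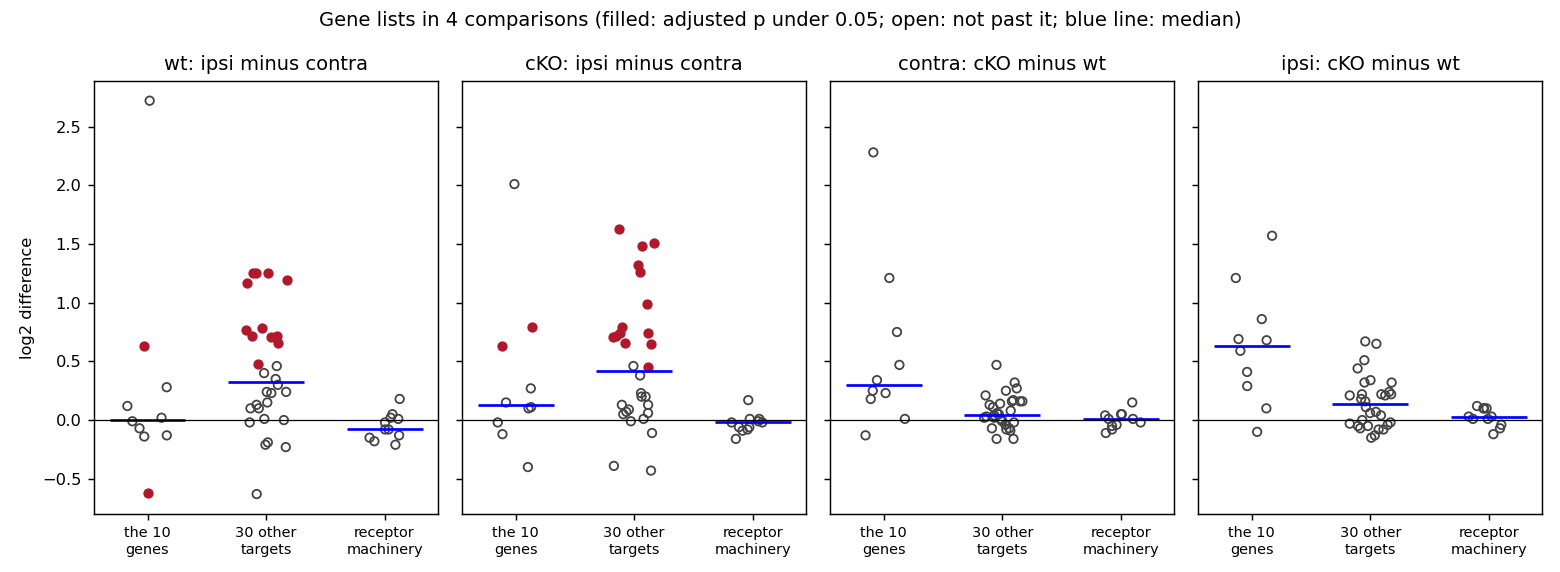
Log2 difference (vertical axis) of each tested gene in 3 lists (the 10 genes, 30 other glucocorticoid targets and 11 genes of the receptor machinery) in 4 comparisons, with filled points for an adjusted p under 0.05 and a line at the list's median. Filled points occur only in the comparisons between sides, where 12 and 14 of the 30 other targets rose in wt and cKO.

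Markers of the cell types that carry these transcripts, and of others that cortex samples can hold, were set beside the genotype differences. None of the 10 astrocyte, 10 oligodendrocyte, 10 endothelial and 10 microglial markers passed the test between genotypes on either side by edgeR or DESeq2. Their median log2 differences were −0.01 and −0.06 for astrocytes, −0.04 and 0.03 for oligodendrocytes, −0.08 and −0.14 for endothelial cells and −0.10 and −0.19 for microglia, contralaterally and ipsilaterally. At an unadjusted p under 0.05, where 2.7% of all genes stood contralaterally and 5.86% ipsilaterally, there were 2 endothelial markers contralaterally, both lower in cKO, and 0 of the other 3 types. Ipsilaterally there were 2 astrocyte markers (1 higher, 1 lower), 0 oligodendrocyte, 2 endothelial (both lower) and 3 microglial ones (all lower), and all 10 microglial markers lay below 0. Summed endothelial levels were 289 to 327 CPM in wt and 262 to 294 CPM in cKO contralaterally, and 318 to 403 CPM in wt and 312 to 345 CPM in cKO ipsilaterally. In TPM they were 218 to 263 in wt and 230 to 254 in cKO contralaterally, and 223 to 259 and 239 to 316 ipsilaterally.

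Of 10 cortical neuron markers 0 passed by edgeR or DESeq2, with medians of −0.01 and −0.11. Ipsilaterally 9 of 10 lay below 0, and 1 was higher and 3 lower at an unadjusted p under 0.05, and 0 were contralaterally. All genes at that threshold made up 2.7% contralaterally and 5.86% ipsilaterally. The summed level of the cortical neuron markers was 2740 to 2940 CPM in wt and 2540 to 2720 CPM in cKO ipsilateral libraries. In TPM these sums overlapped, at 1210 to 1540 in wt and 1220 to 1680 in cKO. Of 8 striatal markers 0 passed by either tool, with medians of −0.01 and −0.27; 7 of 8 lay below 0 ipsilaterally, 4 of them at an unadjusted p under 0.05, and 0 were contralaterally. Their summed level was 214 to 303 CPM in wt and 197 to 238 CPM in cKO ipsilateral libraries. Of 10 meningeal and fibroblast markers, 0 passed, with medians of −0.31 and −0.12 and, at an unadjusted p under 0.05, 3 lower contralaterally and 1 lower ipsilaterally. Of 7 red blood cell markers 5 were tested and 0 passed, with medians of −1.90 and −0.83 and 1 (lower) and 0 at an unadjusted p under 0.05. Their summed levels were 2.1 to 242 CPM in wt and 4.78 to 81.7 CPM in cKO contralaterally, and 597 to 2100 CPM in wt and 602 to 933 CPM in cKO ipsilaterally. The part of cell makeup in the genotype differences was not tested.

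Genes whose centred log2 CPM over the 12 libraries lay closest to that of Fkbp5 were Galnt15, Aloxe3, Tfap4, Gm3696 and Xdh. They stood at a root mean square difference of 0.22 to 0.247, among the 14496 genes that averaged 1 CPM or more. Fkbp5's own spread on that scale was 0.422, which is also where a gene without any change would stand. The measure takes in the size of changes, so a gene that moves with Fkbp5 by larger steps can rank far from it. Galnt15, a glycosyltransferase gene, was at 6.84, 7.57 and 6.62 CPM in contralateral and 5.04, 5.58 and 5.39 CPM in ipsilateral wt libraries. In cKO cortex it stood at 11.2, 11.2 and 5.48 CPM contralaterally and 8.87, 7.85 and 7.46 CPM ipsilaterally. Like Fkbp5, it was lower in cKO contralateral library 3 than in the other 2 libraries of that group. Of the other 9 genes, Tsc22d3 ranked 56 and Hif3a 217 by this measure, and Sgk1 ranked 4515, Zbtb16 6668, Plin4 10095, Map3k6 10887, Nr3c1 12821, Cdkn1a 13578 and Lcn2 14423.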

How the data were processed

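RNA of 12 cortex libraries, 4 groups of 3, was sequenced after a stranded mRNA library kit, per the labels' protocols. Per the submitters' processing notes, reads were processed with Trim Galore 0.6.4, STAR 2.7.1a, RSEM 1.2.28 and DESeq2 1.36.0 on mm10; the annotation used and how strand was counted are not given in the sources used here. The authors deposited estimated counts per gene, as whole numbers, and TPM. Identifiers were matched to GENCODE M21 (55227 of 55487, 99.5%).

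From the deposited estimated counts, 16836 genes passed filterByExpr of edgeR (at least 10 counts, at least 15 in all) and 38651 did not; the former were fitted over all 12 libraries with edgeR's quasi-likelihood test (edgeR 4.0.16, R 4.3.3), scaling by trimmed mean of M values. p-values were adjusted by Benjamini-Hochberg over all kept genes, with a threshold of 0.05. The contrasts were cKO against wt on each side, ipsilateral against contralateral in each genotype, and the difference of the latter 2. Errors beside log2 differences are SEs, and log2 CPM used a prior count of 2.

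The 10 genes, the other gene lists and the rules were chosen with earlier results of these data known. Named genes were Tmem173, the 10 genes, up to 6 called genes of the wider list and 3 of the receptor list per comparison by adjusted p (or the 3 and 2 with the highest mean CPM where none was called), and the 5 genes most like Fkbp5. Alternatives were DESeq2 size factors, no filter, library totals, a filter at 1 CPM in 3 libraries and 100 counts in all, the DESeq2 test (1.42.0), limma-voom (limma 3.58.1), limma on log2 TPM with 1 or 0.1 added (genes averaging 1 TPM or more), leaving out single libraries or 2 together, a replicate block, and fits of only the groups compared. The fitting code was tested on simulated counts.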

Additional observations from a re-analysis of the deposited data

How the results depend on the processing

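Direction and side of the threshold held for Fkbp5 in wt under all alternatives apart from the left-out libraries given above, for Cdkn1a in wt apart from TPM, and for Cdkn1a in cKO throughout. Genes called between sides in wt, 491, became 991 with no filter, 766 with the DESeq2 test, 139 and 138 with TPM and 1 or 0.1 added, 968 without cKO ipsilateral library 3 and wt contralateral library 3 together, and 250 to 861 with single libraries left out. In cKO, 461 became 968 with no filter, 174 and 170 with TPM, and 277 to 579 with libraries left out. Between genotypes, 0 became 96 contralaterally and 223 ipsilaterally with no filter, 3 and 12 with the DESeq2 test, 0 to 2 contralaterally with libraries left out, and 1 ipsilaterally with TPM (1 or 0.1 added). For the difference of side effects, 0 became 72 with no filter and 1 with TPM. Of the 10 genes, the 2 called in wt became 3 with no filter, with the DESeq2 test and in a fit of only the 2 groups compared (Lcn2 added each time), 1 with TPM and 1 to 3 with libraries left out. The 2 called in cKO became 4 with no filter, 1 with TPM and 1 to 3 with libraries left out. The 0 called between genotypes became 3 contralaterally and 7 ipsilaterally with no filter, and 1 and 5 with the DESeq2 test. The cause was not tested.

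Signs turned between sides for genes that passed no test. In wt, Plin4 became 0.23 and 0.06 without contralateral library 2 and ipsilateral library 3 (range −0.37 to 0.23 over libraries left out). Hif3a became 0.05, 0.05 and 0.07 without contralateral library 1 and ipsilateral libraries 1 and 3 (range −0.13 to 0.07). Sgk1 became −0.03 with library totals, −0.08 with TPM, and −0.05 and −0.01 without contralateral library 1 and ipsilateral library 2. Nr3c1 became −0.07 and −0.08 with TPM and 1 or 0.1 added. In cKO, Plin4 became 0.05 (range −0.30 to 0.05) and Tsc22d3 0.04 (range −0.09 to 0.04) without contralateral library 1, and Sgk1 −0.08 (range −0.08 to 0.24) without contralateral library 3. Tsc22d3 became 0.00, 0.01 and 0.02 without contralateral library 2 and ipsilateral libraries 1 and 3, and 0.02 without the pair of libraries. Hif3a became −0.02 and −0.03 with TPM. TPM moved the median of all genes by −0.18 in wt between sides and by 0.16 between genotypes ipsilaterally. Relative to that shift Fkbp5 fell by 0.66 in wt, and Nr3c1 differed by 0.04 between genotypes. Between sides in wt, Map3k6 differed by 0.19, Sgk1 by 0.10 and Nr3c1 by 0.11 relative to the shift, so Sgk1 and Nr3c1 kept their sign. In cKO, Hif3a differed by 0.02 relative to a shift of −0.04.

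Lcn2 passed between sides in wt with the DESeq2 test (adjusted p = 0.0296), with no filter (2.54e-32), in the fit of 2 groups (0.000166) and without cKO contralateral library 2 (0.021) or 3 (0.0204), and in cKO without cKO contralateral library 2 (0.0125). The value with no filter lay far from the 0.0551 of the main edgeR fit on the same libraries and is not taken as credible. Nothing is read from calls made only with no filter. Nothing in the labels says that equal library numbers mark 1 animal. After group means were removed, sides of equal number correlated at 0.0705, 0.092 and 0.0568 in cKO, each library matching its own number best. In wt they correlated at −0.002, 0.0941 and 0.0457. There contralateral libraries 1 and 3 matched another number better, at 0.046 and 0.0606. These values do not settle whether equal numbers are pairs, and the main fit took none. With a replicate block, 501 genes were called in wt and 490 in cKO, and with the block within genotype 567 and 533. Of the 10 genes, 3 passed in wt (Fkbp5, Cdkn1a and Lcn2) and 4 in cKO with either block, Fkbp5 in cKO at an adjusted p of 0.0402 and 0.0429. Each group had 3 libraries, and cKO ipsilateral library 3 had the least depth for all genes. Lcn2 had 13 to 28 counts in wt contralateral libraries. In cKO it spread from 0.714 to 7.54 CPM contralaterally and from 3.11 to 19.9 CPM ipsilaterally. The part of counting error in the spread of Lcn2 was not tested.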
